A study of Mus musculus with 9 samples.

Results

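The expression of 6 genes of metallothionein and zinc handling was followed in liver RNA sequencing of 9 libraries: the metallothioneins Mt1 and Mt2, the importer Slc39a14, the exporters Slc30a1 and Slc30a10, and the zinc-sensing transcription factor Mtf1. The members were taken as the rows whose gene name is one of these symbols, which gave 6 of the 56748 genes in the table. C57BL/6 mice (C57BL/6J in the series description), bought at 7 to 8 weeks of age, fell into 3 groups of 3 libraries. The Control libraries are labelled with water as the treatment, and those mice were gavaged with 200 µL of sterile water daily. The DSS libraries came from mice with chronic colitis induced by 3 cycles of 1.8% dextran sulfate sodium (DSS), each of 1 week in the drinking water and 1 week of recovery, with the same water gavage. The Indirubin libraries carry the label DSS+Indirubin, and these mice received indirubin, a poorly soluble constituent of indigo naturalis and a ligand of the aryl hydrocarbon receptor, at 1 g/kg/day in 200 µL of sterile water. The series description reads as if every group had DSS colitis, so that the Control group is without DSS by its sample labels alone. The labels do not say that the libraries of a group came from separate mice, and p-values measure only the spread between these libraries.

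Metallothioneins are small cysteine-rich proteins of the cytosol that bind zinc and copper and are made in large amounts by hepatocytes. MTF1 senses free zinc in the cell and turns on the metallothionein genes and Slc30a1 through metal response elements in their promoters, and glucocorticoids, interleukin-6 acting through STAT3, and oxidative stress are other known inducers of Mt1 and Mt2. Slc39a14 (ZIP14) carries zinc, iron and manganese into hepatocytes and is known as an interleukin-6-responsive gene of the inflamed liver, Slc30a1 (ZnT1) exports zinc across the plasma membrane, and Slc30a10 (ZnT10) is known mainly as an exporter of manganese.

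Library totals lay between 6514863 and 7944684 counts, but mitochondrial transcripts took 71.6% to 91.3% of them, which left 569044 to 2132208 nuclear counts. The largest nuclear totals were in DSS-3, Indirubin-2 and Indirubin-3, so zinc transporters with a few counts in the other libraries were measured with little precision. Genes with a count numbered 8302 in DSS-2, the fewest, and 10183 to 17389 in the other libraries. The tissue label was checked against its markers: 6 of 7 hepatocyte markers were in the table, all of them above 0 in every library, with a summed level of 5850 to 17200 CPM (read counts relative to library size, which was scaled by the trimmed mean of M-values, TMM, over all 9 libraries). The lowest sums were those of Indirubin-2 (5850) and Indirubin-3 (6860), against 8480 to 17200 in the 7 other libraries. Alb made up most of each sum. Alb, Ttr, Serpina1c and Fabp1 were lowest in Indirubin-2 and -3, whereas Apoa1 was lowest in DSS-1. Cps1 went the other way, at 67.2 CPM in Indirubin-2, the highest of the 9 libraries, and at 37 in Indirubin-3, within the Control range. The sum therefore does not stand for every marker. Markers of pancreatic acinar cells, 13 genes, summed to 9.69 to 23.4 CPM in Control, to 0 to 3.08 in DSS and to 10.6, 1430 and 1410 in Indirubin-1, -2 and -3. None of these 13 markers was at 0 in Indirubin-2 or Indirubin-3, whereas 3 to 13 of them were at 0 in each of the other libraries. Neutrophil markers, 7 genes, summed to 1.17 to 3.65 CPM in Control, 11.5 to 17.4 in DSS and 26.3, 243 and 90.7 in Indirubin-1, -2 and -3. S100a8 and S100a9 made up most of the sums in the DSS and Indirubin libraries.

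Indirubin-1 stood apart from the other Indirubin libraries and near the Control libraries in most acute-phase genes: the serum amyloid gene Saa1 was at 9.73 CPM in it, against 2.92 to 9.69 in Control, and at 1850 and 2530 CPM in Indirubin-2 and Indirubin-3. Indirubin-1 was also above every Control library in Saa2, Saa3, Il6ra and Orm2 (6.79 CPM against 0 to 2.82). It was below every Control library in Fgb, Socs3 and Hamp (12.3 CPM against 14.1 to 77.3). The members' results that involve the Indirubin group are therefore given with and without it.

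Mt1 (ENSMUSG00000031765) and Mt2 (ENSMUSG00000031762) are neighbours on the plus strand of chromosome 8, at 94905710 to 94906955 and 94899292 to 94900196 in GRCm39, with 5514 bases from the end of Mt2 to the start of Mt1. Slc39a14 (ENSMUSG00000022094) lies on chromosome 14, at 70540918 to 70588874 on the minus strand. Slc30a1 (ENSMUSG00000037434) and Slc30a10 (ENSMUSG00000026614) both lie on the plus strand of chromosome 1, at 191638879 to 191645359 and 185187045 to 185200959. Mtf1 (ENSMUSG00000028890) lies on chromosome 4, at 124695897 to 124743593 on the plus strand.

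Promoter windows of 280 bases (250 before the gene's start and the first 30 from it, RefSeq, GRCm38.p6, all on the plus strand) were found for 5 of the 6 members, and the 4 that hold a core of the metal response element, the sequence that MTF1 binds, are shown 5′ to 3′ with the cores in capitals. The cores searched were TGCACNC and TGCGCNC on both strands, overlaps included. The Mt1 window spans chr8:94178839-94179118, the Mt2 window chr8:94172368-94172647, the Slc30a1 window chr1:191906531-191906810 and the Slc30a10 window chr1:185454598-185454877.
Mt1: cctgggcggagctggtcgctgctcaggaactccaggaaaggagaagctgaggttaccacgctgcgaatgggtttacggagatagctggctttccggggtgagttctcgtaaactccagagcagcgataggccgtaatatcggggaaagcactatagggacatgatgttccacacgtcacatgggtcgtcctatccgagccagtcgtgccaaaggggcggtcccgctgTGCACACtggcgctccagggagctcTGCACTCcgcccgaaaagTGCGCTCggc
Mt2: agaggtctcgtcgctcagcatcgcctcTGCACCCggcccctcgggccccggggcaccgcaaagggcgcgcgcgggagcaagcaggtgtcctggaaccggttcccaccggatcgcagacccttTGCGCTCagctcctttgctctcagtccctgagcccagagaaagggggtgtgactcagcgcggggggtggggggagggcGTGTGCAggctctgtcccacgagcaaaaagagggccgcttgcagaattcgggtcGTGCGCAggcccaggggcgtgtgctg
Slc30a1: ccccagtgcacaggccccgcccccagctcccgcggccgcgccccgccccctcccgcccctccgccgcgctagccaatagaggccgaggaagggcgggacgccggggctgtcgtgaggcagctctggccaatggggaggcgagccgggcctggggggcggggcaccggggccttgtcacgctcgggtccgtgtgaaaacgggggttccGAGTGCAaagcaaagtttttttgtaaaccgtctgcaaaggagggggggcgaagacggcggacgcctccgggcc
Slc30a10: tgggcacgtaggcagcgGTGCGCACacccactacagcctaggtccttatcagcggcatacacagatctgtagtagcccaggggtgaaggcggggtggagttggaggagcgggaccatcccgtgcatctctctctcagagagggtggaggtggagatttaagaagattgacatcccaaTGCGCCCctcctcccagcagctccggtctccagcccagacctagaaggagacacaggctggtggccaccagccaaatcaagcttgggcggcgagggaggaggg
The Mt1 window held 3 cores, with first bases 23 before the start and at positions 3 and 21 from it. The Mt2 window held 4, with first bases 223, 128 and 50 before the start and at position 5 from it, the last 2 of these on the minus strand. Slc30a1 had 1 core, 43 bases before the start on the minus strand, and Slc30a10 had 3, of which the pair at 233 and 232 bases before the start overlaps on opposite strands and the other lies at 73. The Mtf1 window held 0. Among all 32851 promoter windows of that length, 24.1% held at least 1 core, 1.73% at least 3 and 0.405% at least 4. The STAT motif TTCNNNGAA was found in 0 of the 5 windows and in 7.83% of all windows, which says only that these letters are not in the windows searched.

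Mt1 was the most abundant of the 6 genes in every group when levels were set per kilobase of gene length. Its mean was 5.68 CPM per kb in Control, 89 in DSS and 309 in Indirubin. In Control, Slc30a10 (0.487), Slc30a1 (0.458) and Slc39a14 (0.449 CPM per kb) followed and differed by less than their SDs, Mtf1 was at 0.133, and Mt2 had no count. In DSS, Slc30a10 (0.963), Mt2 (0.829) and Slc39a14 (0.613) came after Mt1, again with differences within the SDs, followed by Slc30a1 (0.223) and Mtf1 (0.221). In Indirubin, Mt2 (24.7 CPM per kb) and Slc39a14 (1.48) held the next places, and Slc30a10 came last at 0.134, below Slc30a1 (0.525) and Mtf1 (0.301). The Mt2 mean rests on Indirubin-2 and -3, and in Indirubin-1 Mt2 was last at 0 and Slc30a10 stood at 0.113 CPM per kb.

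**Figure D1:**
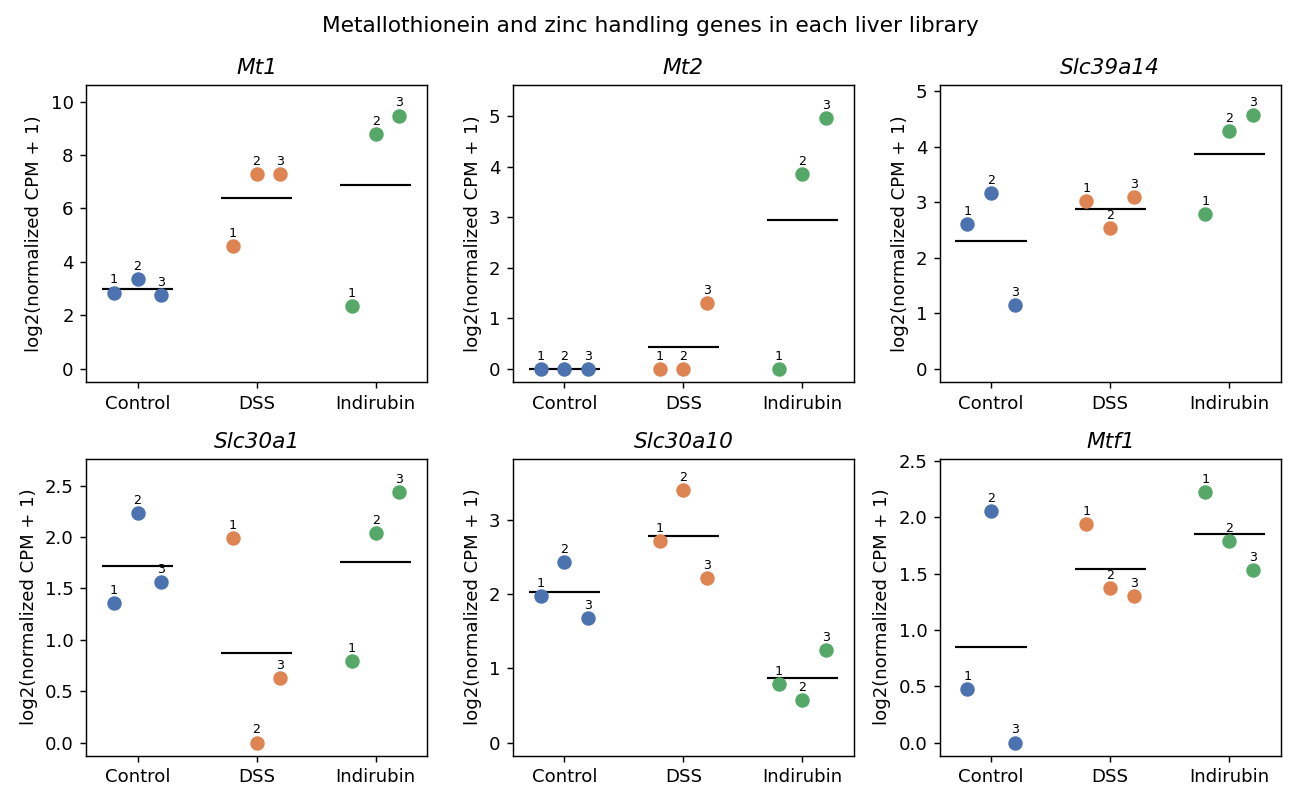
Level of each member in each library, as log2 of normalized CPM plus 1, where points are libraries with their number and lines are group means. Mt1 is higher in all 3 DSS libraries than in Control and highest in Indirubin-2 and -3, while Indirubin-1 is below the Control libraries, and Slc30a10 is lower in all 3 Indirubin libraries than in any other.

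Mt1 rose in the livers of DSS mice. It had 32, 52 and 24 counts in Control-1, -2 and -3 and 195, 869 and 1701 in DSS-1, -2 and -3, or 6.23, 9.16 and 5.85 CPM against 23.1, 154 and 155. Every DSS library was above every Control library, and DSS-1 was the lowest of the DSS libraries. The means were 7.08 ± 1.81 CPM (SD, n = 3) in Control and 111 ± 76 (SD, n = 3) in DSS, a log2 fold change of 3.99 (SE 0.59, 15.9-fold higher, adjusted p = 0.00612). Where DESeq2 is not named, this and the other adjusted p-values come from edgeR by quasi-likelihood, with the Benjamini-Hochberg correction over all genes tested. An exact two-sided permutation test of 3 against 3 gives 0.10 here, which is the smallest p it allows. Left out in turn, each library gave a log2 fold change between 3.65 and 4.47, but the call was lost without Control-1 (adjusted p = 0.0842), Control-2 (0.0547) or Control-3 (0.0884) in the same edgeR test, and in the fit of all 9 libraries (3.96, adjusted p = 0.182). In bulk tissue, fewer cells of a type and less RNA per cell cannot be told apart. The summed neutrophil markers were higher in each DSS library than in each Control library, mostly through S100a8 and S100a9. Ly6g, Mmp8 and Camp were at 0 in every DSS library. Of the 7 markers, 4, 5 and 3 were at 0 in DSS-1, -2 and -3, and 5, 5 and 4 in Control-1, -2 and -3. The part of these markers in the Mt1 difference was not tested.

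Of the 4 members tested in DSS versus Control, Mt1 was the 1 that passed an adjusted p of 0.05, against 0.708% of the 7482 genes tested. It was also the 1 member with an unadjusted p under 0.05 (7.52% of all genes tested) and the 1 whose groups did not overlap (15.6%). Mt2 and Slc30a1 had too few counts to be tested in this comparison.

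In the Indirubin group Mt1 split by library, with 22, 5357 and 8238 counts or 4.04, 439 and 712 CPM in Indirubin-1, -2 and -3. Indirubin-2 and -3 were above all DSS libraries, and Indirubin-1 was below all Control libraries. The mean of 385 ± 357 CPM (SD, n = 3) did not differ from DSS beyond that spread: the log2 fold change was 1.79 (SE 1.13, adjusted p = 0.823, edgeR), and it was 1.00 without Indirubin-3 and 1.19 without DSS-1. Against Control it was 5.80 (SE 1.24, 55.6-fold, adjusted p = 0.0758, edgeR), with overlapping groups. Without Indirubin-1, the edgeR fit gave 2.26 against DSS (adjusted p = 0.162) and 6.23 against Control (adjusted p = 9.29e-06). With it, DESeq2's Wald test also passed the threshold against Control (5.76, adjusted p = 0.00535).

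Mt2 was detected in 3 of the 9 libraries. It had 0 counts in all 3 Control libraries, in DSS-1, DSS-2 and Indirubin-1, 16 counts in DSS-3, 165 in Indirubin-2 and 347 in Indirubin-3. These are 1.46, 13.5 and 30 CPM in the last 3, and the group means were 0.488 ± 0.844 CPM in DSS and 14.5 ± 15 in Indirubin (SD, n = 3 each). The Indirubin mean was at least 23.6-fold higher than a Control group with 3 counts in each library, although the groups overlap because Indirubin-1 was at 0. This bound was 35.4-fold without Indirubin-1, 24.4-fold without Indirubin-2 and 11-fold without Indirubin-3. Against DSS the log2 fold change was 4.68 (SE 1.45, unadjusted p = 0.00709, adjusted p = 0.446, edgeR), with 2 DSS libraries at 0. Its dependence on the prior count was not tested. Without DSS-3, every remaining DSS library was at 0, so the value of 9.98 is set by the prior count and does not measure the fold. The log2 fold change against DSS was 5.14 without Indirubin-1 (adjusted p = 0.0293, edgeR). Against Control, where every library was at 0, Mt2 did not pass the filter with all 6 libraries, and no test is given. Without Indirubin-1 it passed the filter, but only through Indirubin-2 and -3, so that fit is not given either and the bound above stands in its place. No fold is given for DSS against Control, where the DSS mean was below the level of 3 counts in each Control library.

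The libraries in which Mt2 appeared were those with the most nuclear counts, DSS-3, Indirubin-2 and Indirubin-3, so the share of Mt2 among the counts of Mt1 and Mt2, which does not depend on the library total, was also computed. It was 0.932% in DSS-3 (16 of 1717, 95% Wilson interval 0.574% to 1.51%), 2.99% in Indirubin-2 (165 of 5522, 2.57% to 3.47%) and 4.04% in Indirubin-3 (347 of 8585, 3.65% to 4.48%). The interval of DSS-3 lay below both Indirubin intervals. For libraries without Mt2 the limit is taken as 3 counts of the total, which differs from the Wilson limit. DSS-2 had 0 of 869, which allows a share of up to 0.345% (Wilson limit 0.44%), below the interval of each of these 3 libraries. DSS-1, with 0 of 195, allows up to 1.54% (Wilson limit 1.93%), which is below the intervals of Indirubin-2 and -3 but not below that of DSS-3. In Control and Indirubin-1, 0 of 22 to 52 allows 5.77% to 13.6%, so shares of this size could not be seen there. Per kilobase, Mt1 exceeded Mt2 by 50.2-fold in DSS-3, 15.3-fold in Indirubin-2 and 11.2-fold in Indirubin-3. The length used for Mt1, 1246 bases, is its whole span on the chromosome, whereas that for Mt2, 588 bases, is shorter than its span. These ratios depend on the 2 lengths and would be larger with a shorter Mt1 length. These intervals and limits cover counting error only, since reads amplified by PCR are not independent molecules. How reads shared by the similar Mt1 and Mt2 transcripts were assigned is not given in the sources used here, so each share is uncertain to that extent.

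**Figure D2:**
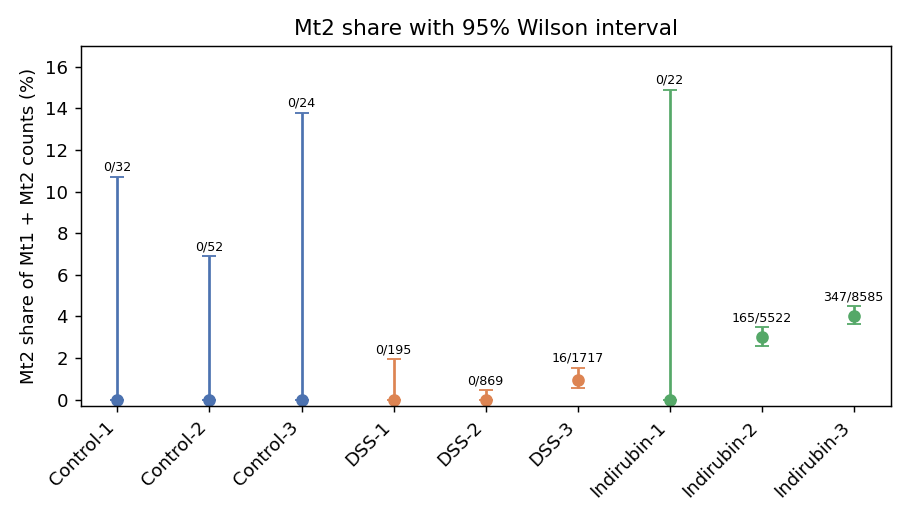
Share of Mt2 among the counts of Mt1 and Mt2 in each library (percent, y axis), with 95% Wilson intervals as bars and counts above them. The share is 0.932% in DSS-3 and 2.99% and 4.04% in Indirubin-2 and -3, and the wide intervals of Control and Indirubin-1 come from 22 to 52 counts.

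Together, both genes took 0.00414% to 0.00526% of nuclear counts in Control, 0.0179% to 0.108% in DSS, and 0.00313%, 0.289% and 0.485% in Indirubin-1, -2 and -3. The libraries high in both metallothioneins, Indirubin-2 and -3, were also those with the acinar markers, and their erythroid markers, 5 genes, summed to 667 and 645 CPM, against 110 to 267 in the 7 other libraries. Indirubin-2 and -3 had mitochondrial shares of 71.6% and 77.2% against 89.5% in Indirubin-1. The part of any of these in the metallothionein levels was not tested. In DSS-2 and DSS-3, where Mt1 was at 154 and 155 CPM, the acinar markers summed to 0 and 2.74 CPM. That covers the DSS level of Mt1 only. The higher Mt1 levels and most Mt2 counts lay in Indirubin-2 and -3, where they cannot be told apart from the acinar markers. The brain and epithelial metallothioneins Mt3 and Mt4, which lie at 94879235 to 94880774 and 94863825 to 94865659 on chromosome 8 (GRCm39), were at 0 in every library apart from 1 count of Mt3 in Control-1.

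The importer Slc39a14 was higher in 2 of the 3 Indirubin libraries. It had 26, 45 and 5 counts in Control, 60, 27 and 82 in DSS and 32, 224 and 261 in Indirubin, which is 5.06, 7.93 and 1.22 CPM, 7.11, 4.78 and 7.5 CPM, and 5.88, 18.4 and 22.6 CPM. Indirubin-2 and -3 were above every other library, and Indirubin-1 lay within the range of the DSS and Control libraries. The log2 fold change was 1.27 against DSS (SE 0.52, unadjusted p = 0.031, adjusted p = 0.603, edgeR) and 1.75 against Control (SE 0.63, unadjusted p = 0.0171, adjusted p = 0.242, edgeR). Without Indirubin-1 these were 1.55 (adjusted p = 0.141) and 1.98 (adjusted p = 0.0721). DSS versus Control gave 0.50 (SE 0.64, adjusted p = 1, edgeR), with the groups overlapping, and ranged from 0.00 without Control-3 to 1.05 without Control-2. Indirubin-2 and -3 are also the libraries with acinar markers and the highest erythroid markers, whose part in these values was not tested.

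The exporter Slc30a10 was lower in all 3 Indirubin libraries than in every DSS and Control library. It had 15, 25 and 9 counts in Control, 47, 54 and 40 in DSS and 4, 6 and 16 in Indirubin, or 2.92, 4.4 and 2.19 CPM, 5.57, 9.57 and 3.66 CPM, and 0.734, 0.492 and 1.38 CPM. Here Indirubin-1, whose hepatocyte markers summed to 9560 CPM, stood with Indirubin-2 and -3. There this sum, mostly of Alb, was lowest, though Cps1 was not. The part of the marker levels in the Slc30a10 values was not tested. The means were 3.17 ± 1.13 CPM in Control, 6.27 ± 3.02 in DSS and 0.87 ± 0.46 in Indirubin (SD, n = 3 each). The log2 fold change against DSS was -2.81 (SE 0.79, 7.03-fold lower, unadjusted p = 0.00378, adjusted p = 0.433, edgeR), and it stayed between -3.35 and -2.45 with each library left out, at adjusted p-values of 0.227 to 0.918. Without Indirubin-1 it was -2.83 (adjusted p = 0.227). Against Control it was -1.81 (SE 0.91, 3.51-fold lower, adjusted p = 0.411, edgeR), and -1.86 without Indirubin-1 (adjusted p = 0.423). The exact permutation p was 0.10 in both comparisons, the smallest possible. For DSS versus Control the log2 fold change was 1.03 (SE 0.64, adjusted p = 0.863, edgeR), with overlapping groups. The low values rest on 4 to 16 counts a library.

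The exporter Slc30a1, a known MTF1 target, did not differ between groups beyond its spread. Its counts were 8, 21 and 8 in Control, 25, 0 and 6 in DSS and 4, 38 and 51 in Indirubin, or 1.56, 3.7 and 1.95 CPM, 2.96, 0 and 0.548 CPM, and 0.734, 3.11 and 4.41 CPM. All groups overlapped, and DSS-2, with 869 counts of Mt1, had none of Slc30a1. DSS-2 also had the fewest genes with a count (8302), and whether this 0 is an absence of the transcript was not tested. Its log2 fold change was 1.22 against DSS (SE 1.30, adjusted p = 0.948) and 0.25 against Control (SE 0.84, adjusted p = 0.943) in edgeR, and the latter turned negative without Control-1 (-0.03) or Indirubin-3 (-0.25). The value against DSS ranged from 0.60 without DSS-2 to 3.04 without DSS-1. Without Indirubin-1 the values were 1.57 and 0.53 (adjusted p = 0.918 and 0.837).

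Mtf1 had 2, 18 and 0 counts in Control, 24, 9 and 16 in DSS and 20, 30 and 22 in Indirubin, which is 0.389, 3.17 and 0 CPM, 2.84, 1.59 and 1.46 CPM, and 3.67, 2.46 and 1.9 CPM. Control-2 was above all 3 DSS libraries and 2 of the 3 Indirubin libraries, and all groups overlapped. The log2 fold change was 0.79 for DSS versus Control (SE 1.44, adjusted p = 1), 0.43 for Indirubin versus DSS (SE 0.88, adjusted p = 0.981) and 1.16 for Indirubin versus Control (SE 1.16, adjusted p = 0.744), all by edgeR. With each library left out these ranged from 0.15 (without Control-3) to 3.20 (without Control-2), from 0.05 (without Indirubin-1) to 0.69 (without DSS-1), and from 0.56 (without Control-3) to 3.58 (without Control-2), at adjusted p-values of 0.366 or more. Without Indirubin-1 the value against Control was 0.76 (adjusted p = 0.87). At these counts a difference of the size of these standard errors was not detectable.

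**Figure D3:**
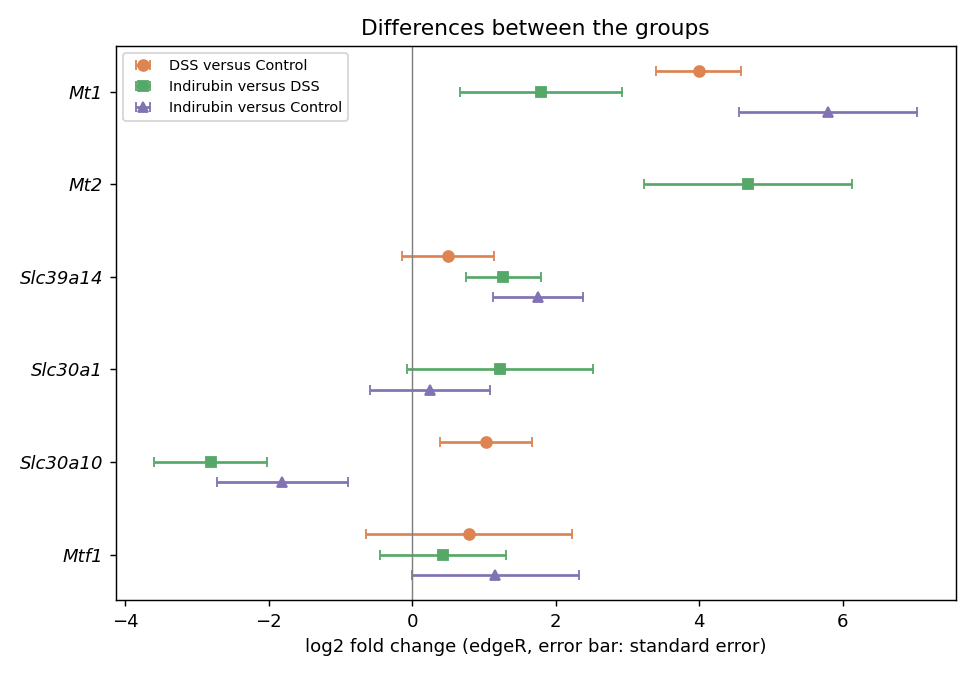
Log2 fold change of each member in the 3 comparisons (x axis), with its standard error as the bar, from edgeR fits of the 6 libraries concerned. Mt1 in DSS versus Control (3.99) is the 1 value that passed the adjusted threshold, Slc30a10 lies below 0 in both comparisons of Indirubin, and comparisons in which a gene was not tested carry no point.

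Of the 6 members tested in Indirubin versus DSS, 0 passed an adjusted p of 0.05 in edgeR, as did 0% of the 9117 genes tested. At that unadjusted threshold 3 members passed (Mt2, Slc39a14 and Slc30a10), against 7.68% of all genes (700), and 1 member had groups that did not overlap (Slc30a10), against 16.4%. DESeq2's Wald test called 80 genes here and 0 of the members, with Slc30a10 at an adjusted p of 0.0561. Of the 5 members tested in Indirubin versus Control, 0 passed at an adjusted p of 0.05 in edgeR, against 0.236% of the 8059 genes tested. There 2 members (Mt1 and Slc39a14) had an unadjusted p under 0.05, against 13.8% of all genes, and 1 (Slc30a10) had groups that did not overlap, against 21.6%. The comparisons share libraries with each other, the DSS group or the Control group, and are not independent.

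No other zinc transporter passed the adjusted threshold in edgeR or in DESeq2's Wald test. Of 8 other exporters of the SLC30 family, 2 were tested in DSS versus Control, both with negative values (median log2 fold change -0.97 against 0.01 over all genes tested), 2 in Indirubin versus DSS, both positive (0.41 against 0.15), and 3 in Indirubin versus Control (-0.29 against 0.13). None of these had an unadjusted p under 0.05 in edgeR, 0 in each comparison, against 7.52%, 7.68% and 13.8% of all genes tested. Slc30a9 was at -0.89, 0.61 and -0.29 in these 3 comparisons and Slc30a5, a transporter of the early secretory pathway, at -1.05, 0.21 and -0.76, while Slc30a7, also of the secretory pathway, was at 0.19 in Indirubin versus Control.

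Of 13 other importers of the SLC39 family, 5 were tested in each comparison, of which 1, 0 and 1 had an unadjusted p under 0.05 in edgeR (7.52%, 7.68% and 13.8% of all genes tested), and the medians were -0.38, -0.11 and -0.60 against 0.01, 0.15 and 0.13. Slc39a1 (ZIP1), a plasma membrane zinc importer, had the smallest p among the importers with higher values. It was at 0.389, 4.76 and 1.46 CPM in Control, 9.13, 11 and 7.5 in DSS and 5.69, 5.82 and 10.6 in Indirubin, so that both other groups lay above all Control libraries. Its log2 fold change was 2.10 in DSS versus Control (SE 0.72, unadjusted p = 0.0119, adjusted p = 0.393) and 1.76 in Indirubin versus Control (SE 0.75, adjusted p = 0.317) in edgeR, and -0.31 in Indirubin versus DSS. Slc39a4 (ZIP4), known as the intestinal zinc importer, was at -0.79 in DSS versus Control (adjusted p = 0.74), with groups that did not overlap, and -0.93 in Indirubin versus Control. Slc39a11 was at -1.11 and -1.02 in the same comparisons. In Indirubin versus DSS, Slc39a3 was at 1.06, Slc39a8 (ZIP8), the closest relative of Slc39a14, at 0.79 and Slc39a9 at -0.34, and Slc39a8 was at 0.39 in Indirubin versus Control.

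Further genes described as MTF1 targets, a list of 4, did not pass the threshold. All 4 were tested, and 0 passed in any comparison by edgeR or DESeq2, with 0, 0 and 2 at an unadjusted p under 0.05 in edgeR (7.52%, 7.68% and 13.8% of all genes tested). Without Indirubin-1, 1 of them, Gclc, was called lower in Indirubin versus Control, where that fit called 465 of 9721 genes, 320 of them lower. The medians were 0.17, -0.03 and 0.12 for DSS versus Control, Indirubin versus DSS and Indirubin versus Control, against 0.01, 0.15 and 0.13 over all genes tested. Ndrg1, a stress-responsive gene, was higher in every DSS and every Indirubin library than in Control, at log2 fold changes of 1.05 (adjusted p = 0.946) and 1.76 (unadjusted p = 0.0138, adjusted p = 0.22) in edgeR, and stood at 0.74 in Indirubin versus DSS. Gclc, the catalytic subunit of the enzyme that starts glutathione synthesis, had values of -0.58, -0.99 and -1.61 in the 3 comparisons (adjusted p = 0.906, 0.8 and 0.21, edgeR). Selenow was at 0.32 and -0.29 in DSS versus Control and Indirubin versus DSS, and Csrp1 at 0.22 in both comparisons of Indirubin.

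Genes of the other known inducers of metallothioneins were read from lists. Of 13 acute-phase and STAT3 genes, 12 were tested in DSS versus Control, and 7 passed (Saa1, Saa2, Lcn2, Orm1, Orm2, Hp and Hpx), all higher in DSS, where 0.708% of all genes tested passed, 16 higher and 37 lower. The median log2 fold change was 2.81, against 0.01 over all genes tested. Saa1 rose by 8.25 (SE 0.93, adjusted p = 0.00142) and Orm2, an acid glycoprotein, by 7.74 (SE 0.97, adjusted p = 0.00216) on the log2 scale, and Stat3 was at -0.18 (edgeR). The count was 4 without Control-1, 3 without Control-2, 3 without Control-3, 3 without DSS-3 and 3 in the fit of all 9 libraries or with the replicate block. In Indirubin versus DSS, 13 were tested, 5 with positive and 8 with negative values and 0 past the threshold (median -0.25), with Saa3 at 2.83, Il6ra at 1.38 and Orm2 at -1.79. In Indirubin versus Control the median was 2.59 over 12 genes, 11 of them positive and 0 past the threshold, with Orm2 at 5.97 and Saa1 at 7.66 (both adjusted p = 0.0549, edgeR). In that comparison 9 genes were called, all higher, without Indirubin-1, when 465 of all 9721 genes tested were called. DESeq2's Wald test with Indirubin-1 called 7 higher and 1 lower, where it called 316 of 8059 genes over the whole table. Against DSS the median was 0.15 without Indirubin-1. The Wald test with all libraries called 1 gene, lower, where it called 80 of 9117 genes over the whole table.

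Of 9 glucocorticoid-responsive genes and 8 oxidative stress genes, none passed the adjusted threshold in the main edgeR fits, those with TMM scaling and all libraries of each comparison. In DSS versus Control, 8 glucocorticoid-responsive genes were tested with 3 positive and 5 negative values (median -0.12), and 6 oxidative stress genes with 3 and 3 (median -0.02). In Indirubin versus DSS all 9 and all 6 tested were positive, with medians of 1.09 and 0.51 against 0.15 over all genes, and in Indirubin versus Control all 8 and all 6, with medians of 1.12 and 0.70 against 0.13. Without Indirubin-1, 8 of 9 and 7 of 8 glucocorticoid-responsive genes and 7 of 7 oxidative stress genes in each were positive, and the receptor gene Nr3c1 was at 56.2 CPM in Indirubin-1 against 7.13 and 12 in Indirubin-2 and -3. Without Indirubin-2 or Indirubin-3, 4 to 6 of the 6 oxidative stress genes and 7 to 9 of the glucocorticoid-responsive genes were positive. At an unadjusted p under 0.05 in edgeR there were 0, 3 and 2 glucocorticoid-responsive genes and 0, 2 and 2 oxidative stress genes in the 3 comparisons. The shares of all genes tested were 7.52%, 7.68% and 13.8%. DESeq2's Wald test called 1 of each list in each comparison of Indirubin and 0 in DSS versus Control, where it called 80 of 9117 (Indirubin versus DSS), 316 of 8059 (Indirubin versus Control) and 143 of 7482 genes over the whole table. Without Indirubin-1, edgeR called 2 and 3 glucocorticoid-responsive genes and 1 and 1 oxidative stress genes in Indirubin versus DSS and Indirubin versus Control, against 134 of 10817 and 465 of 9721 genes over the whole table.

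Fkbp5, a co-chaperone of the glucocorticoid receptor, was at 1.78, 1.06 and 4.21 CPM in DSS and 2.57, 41.2 and 40.5 in Indirubin, a log2 fold change of 3.54 (SE 0.85, adjusted p = 0.43, edgeR), and of 3.05 against Control. Ddit4, a stress-induced inhibitor of mTORC1 signalling, was at 2.68 against DSS and 3.56 against Control. Indirubin-2 and -3 were high in Fkbp5, and Indirubin-1 lay within the DSS range. Hmox1, the haem-degrading enzyme, was at 7.47, 6.91 and 9.23 CPM in DSS and 13.2, 33.9 and 34.4 in Indirubin (log2 fold change 1.79, adjusted p = 0.433, edgeR) without overlap, and at 12.2 to 14.4 in Control. Gsr, glutathione reductase, was at 15.1, 15.2 and 21.9 CPM in Indirubin, above all 6 other libraries, with log2 fold changes of 1.37 against DSS and 1.50 against Control (adjusted p = 0.478 and 0.122, edgeR). In DSS versus Control, Srxn1 was at 1.19, Txnrd1 at 0.14, Hmox1 at -0.72 and Nfe2l2 at -0.53, and among glucocorticoid-responsive genes Tsc22d3 was at 0.69, Ddit4 at 0.83, Pck1 at -0.37 and Zbtb16 at -1.14.

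**Figure D4:**
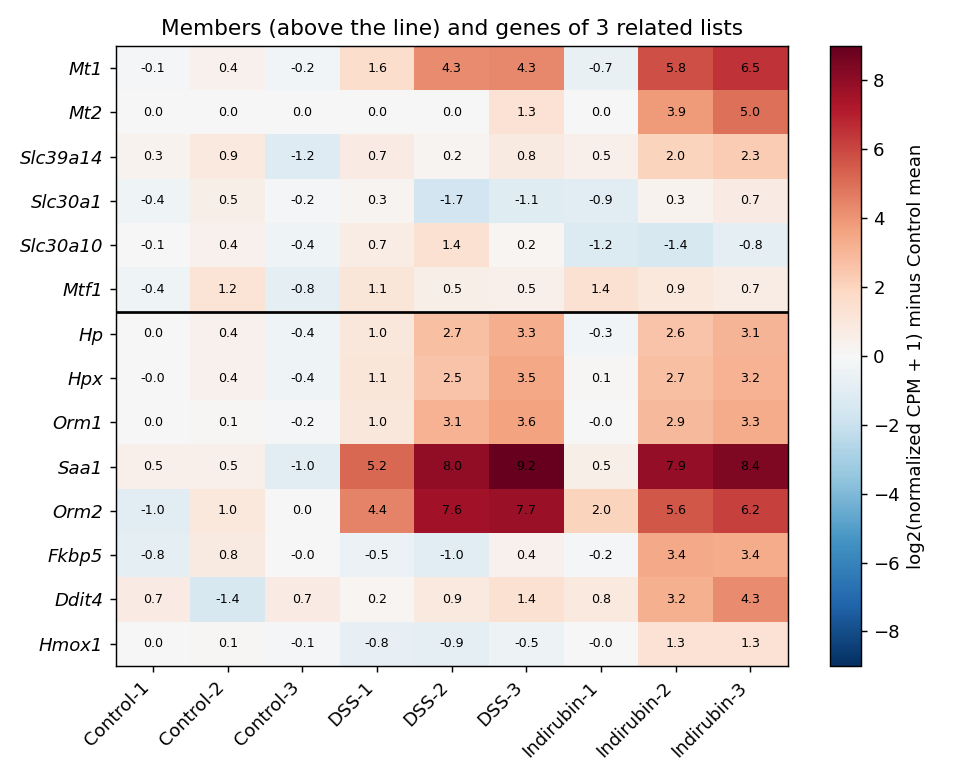
Level of the 6 members (above the line) and of 8 genes of the acute-phase, glucocorticoid-responsive and oxidative stress lists in each library, as log2 of normalized CPM plus 1 minus the Control mean. Mt1 is raised with the acute-phase genes in the DSS libraries and in Indirubin-2 and -3, the latter being also the libraries high in Fkbp5 and Ddit4, and Indirubin-1 is near the Control libraries in these genes, apart from Orm2, which is 1.99 above the Control mean.

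Across the 9 libraries, the 5 genes with levels most like those of Mt1 among 9713 genes were Serpina3m, Hp, Orm1 (Pearson r = 0.96 each), Hpx and Tmem176b (0.95 each), computed on log2 CPM. Serpina3m is a serine protease inhibitor, Hp haptoglobin and Hpx haemopexin, plasma proteins secreted by hepatocytes. Hp, the haemoglobin-binding protein, was at 440 to 725 CPM in Control, 1130, 3750 and 5490 in DSS and 468, 3430 and 4840 in Indirubin, so that its highest library was DSS-3, while that of Mt1 was Indirubin-3. Among the members, the correlation with Mt1 was 0.84 for Mt2, 0.70 for Slc39a14, 0.28 for Mtf1, 0.00 for Slc30a1 and -0.10 for Slc30a10. Among the genes most like Mt2 were Dmbt1, 2810404F17Rik, Eif4ebp1 and Mat1a (0.95 each), of which 2810404F17Rik was, like Mt2, above 0 in DSS-3, Indirubin-2 and Indirubin-3 and at 0 in the 6 other libraries. These 9 points share the group structure, and the 3 libraries with Mt2 share a high nuclear depth, so the correlations are a description.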

How the data were processed

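Liver RNA of 9 libraries was sequenced on a DNBSEQ instrument from 400 ng of RNA extracted with the RNeasy Plus Micro Kit, and the build was GRCm39 by the submitters' processing notes. The aligner and the counting program are not given in the sources used here. The authors deposited whole-number counts per gene without normalization, and these were tested. The FPKM values deposited by the authors were not used for tests. Gene lengths came from the same table, and that of Mt1 (1246 bases) covers its whole span, so its levels per kilobase depend on this length. The log2 fold changes, p-values and group means deposited by the authors hold their own comparisons and were not used, nor were their lists of genes by group.

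Counts were tested with edgeR 4.0.16 (R 4.3.3) by the quasi-likelihood test, with TMM scaling, filterByExpr (minimum count 10, minimum total 15) and Benjamini-Hochberg adjustment over all genes tested, using the 6 libraries of each comparison. The threshold was an adjusted p of 0.05. Standard errors are the log2 fold change over the square root of F. Levels are CPM with TMM factors over the 9 libraries, also per kilobase, and correlations used log2 CPM with a prior count of 2. All 6 members passed the filter over 9 libraries, and 4, 6 and 5 passed it in DSS versus Control, Indirubin versus DSS and Indirubin versus Control. The limit for a count of 0 was 3 counts per library. Alternatives were DESeq2 1.42.0 (size factors, Wald test), library size alone, no mitochondrial genes, no filter, 10 counts in every library, all 9 libraries in one fit, a replicate block, and each library left out. The method was tested on simulated data. Replicate numbers are those of the sample titles and were not used as pairs in the main fits. The check of same-numbered libraries given below does not settle whether they are pairs. No libraries were duplicates (chi-square per degree of freedom 17.5 to 90.7 within groups).

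The members and lists were chosen with earlier results of these data known. All 6 members are named, with up to 2 genes of smallest p in each direction of each list and comparison, and the 5 genes most like Mt1 and Mt2, of which 1 is not reported here. The glucocorticoid, acute-phase and oxidative stress genes plotted were taken from those named.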

Additional observations from a re-analysis of the deposited data

How the results depend on the processing

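Of 198 values of members under alternatives, 183 kept their direction and side of the threshold, 9 gained the threshold, 4 lost it and 2 turned (Slc30a1 in Indirubin versus Control, -0.03 without Control-1 and -0.25 without Indirubin-3, over a range of -0.25 to 0.66). The cause was not tested. Genes called in DSS versus Control numbered 53, against 19 with library size alone, 125 without a filter, 84 with 10 counts in every library, 143 with the DESeq2 Wald test, 11 in the fit of 9 libraries, 30 with the replicate block and 12 to 64 with each library left out. In Indirubin versus DSS they were 0 (700 at an unadjusted p under 0.05), against 2, 156, 2, 80, 4, 3 and 0 to 134, the last without Indirubin-1. In Indirubin versus Control they were 19, against 266, 379, 72, 316, 56, 49 and 1 to 465. Library size alone moved the median of all genes from 0.01 to 0.70, 0.15 to 0.43 and 0.13 to 1.10, and the share of higher calls from 30.2% to 73.7% in DSS versus Control and from 26.3% to 93.6% in Indirubin versus Control. It turned no member's direction.

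Mt1 in DSS versus Control was 3.65 to 4.47 with each library left out and lost its call in the fit of 9 libraries (3.96). Mt1 in Indirubin versus Control gained its call with library size alone (6.99), no filter (5.81), 10 counts in every library (5.88), the DESeq2 Wald test (5.76) and 9 libraries (5.76), and was 5.02 to 6.23 with each library left out. Mt2 in Indirubin versus DSS gained its call without a filter (4.57) and ranged from 3.66 to 9.98 with each library left out. The value of 9.98 is that without DSS-3, where no DSS library had a count, and is set by the prior count. Slc39a14 in Indirubin versus Control gained its call with library size alone (2.83). The replicate block is only a shared number: same-numbered libraries correlated at -0.0248 to 0.0243, and 0, 4 and 4 of 6 libraries were closest to their own number. Depth limits Slc30a1 (0 to 51 counts a library), Mtf1 (0 to 30) and Mt2 (0 in 6 libraries).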

Other observations

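Other metal genes were read from the same fits. Of 8 copper handling genes, 6 were tested in each comparison and 0 passed an adjusted p of 0.05 in edgeR (medians 0.11, -0.19 and -0.31 in DSS versus Control, Indirubin versus DSS and Indirubin versus Control, against 0.01, 0.15 and 0.13 over all genes). At an unadjusted p under 0.05 there were 0, 0 and 1, and DESeq2's Wald test called 0, 0 and 1, the 1 being in Indirubin versus Control, where 13.8% of all genes had such a p and the Wald test called 316 of 8059. Without Indirubin-1, edgeR called 1, Cp, higher in Indirubin versus Control, against 465 of 9721 genes over the whole table. Cp, ceruloplasmin, the copper-carrying ferroxidase of plasma, was at 165, 154 and 88.2 CPM in Control, 121, 259 and 271 in DSS and 120, 525 and 1030 in Indirubin, with log2 fold changes of 0.72, 1.35 and 2.07 (adjusted p = 0.721, 0.692 and 0.175, edgeR). Indirubin-1 lay within the Control range. Slc31a1, the copper importer, was at 0.43, -0.91 and -0.48, Ccs at -0.27 in DSS versus Control and -0.41 in Indirubin versus Control, Commd1 at -1.30 in DSS versus Control and 0.43 in Indirubin versus DSS, and Sod1 at -0.36 in Indirubin versus DSS.

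Hamp, which encodes the iron hormone hepcidin, was lower in all 3 Indirubin libraries (12.3, 20.2 and 7 CPM) than in the DSS libraries (33.7, 110 and 101), with a log2 fold change of -2.63 (SE 0.55, unadjusted p = 0.000426, adjusted p = 0.352, edgeR). It was at 66, 77.3 and 14.1 CPM in Control (-1.95, adjusted p = 0.168). As with Slc30a10, Indirubin-1 was low together with Indirubin-2 and -3.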
